A study of Mus musculus with 13 samples.

Results

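The transcripts of 10 glycolytic enzymes (Hk1, Hk2, Gpi1, Pfkl, Pfkp, Aldoa, Tpi1, Gapdh, Pgk1 and Ldha) were followed through a pull-down of RNA with the mitochondrial anchor protein dAKAP1. They were chosen by name, with earlier results of these data known, and they make up 10 of the 27071 gene identifiers in the deposited table. Bait purified from the KH and Tudor domains of dAKAP1, called KHT, was incubated with RNA from the mouse Leydig cell line MA-10 and pulled down with an antibody against its maltose-binding protein (MBP) tag. Each group used here holds 4 libraries: KHT pull-downs (KHT 1 to 4), negative control pull-downs (NEG 1, 3, 4 and 5) and the untreated RNA that went in (IPT 1 to 4). The NEG libraries came from empty beads against MBP, from MBP alone or from a bait named KHT(GDDG), and the labels do not say which library is which. NEG 2 held no counts and was left out. The RNA had been extracted before the bait was added, so the experiment measures what purified domains hold in a tube, in RNA of 1 cell line. The labels number the libraries but do not say whether the RNA came from separate cultures, and the p-values then measure only the spread between these libraries.

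Glycolysis is the cytosolic pathway that splits glucose to pyruvate. Hexokinase traps glucose as its phosphate, phosphofructokinase commits it to the pathway, and aldolase, triosephosphate isomerase, glyceraldehyde-3-phosphate dehydrogenase and phosphoglycerate kinase carry the carbon on. Lactate dehydrogenase turns pyruvate to lactate. The proteins are made in the cytosol, and hexokinase 1 and hexokinase 2 also dock on the outer mitochondrial membrane, the membrane to which dAKAP1 is anchored. Most of these enzyme genes are known targets of hypoxia-inducible factor 1, and ACGTG is 1 form of the core it binds.

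Promoter windows of 3 enzymes are shown because they hold ACGTG, in differing number and spacing. Each is the 250 bases before the RefSeq start (GRCm38.p6), 5′ to 3′ on the gene's strand, with matches to ACGTG or its reverse complement CACGT in capitals. The windows are chr6:82774455-82774704 on the minus strand for Hk2, chr7:46845554-46845803 on the plus strand for Ldha and chrX:106186850-106187099 on the plus strand for Pgk1.
Hk2: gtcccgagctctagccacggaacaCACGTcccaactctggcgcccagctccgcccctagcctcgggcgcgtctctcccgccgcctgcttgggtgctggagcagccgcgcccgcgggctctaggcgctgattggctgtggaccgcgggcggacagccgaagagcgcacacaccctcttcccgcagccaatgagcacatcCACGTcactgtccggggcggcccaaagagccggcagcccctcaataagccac
Ldha: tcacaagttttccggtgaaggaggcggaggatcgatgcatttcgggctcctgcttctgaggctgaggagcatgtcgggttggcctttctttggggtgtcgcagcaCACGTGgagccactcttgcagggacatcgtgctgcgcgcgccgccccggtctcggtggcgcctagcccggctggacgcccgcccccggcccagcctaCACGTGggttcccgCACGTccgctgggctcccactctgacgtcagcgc
Pgk1: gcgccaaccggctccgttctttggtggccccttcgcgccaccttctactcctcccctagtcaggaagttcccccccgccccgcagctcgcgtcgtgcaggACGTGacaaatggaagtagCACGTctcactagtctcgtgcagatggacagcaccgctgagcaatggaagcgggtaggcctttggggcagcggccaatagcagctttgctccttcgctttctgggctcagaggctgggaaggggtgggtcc
The palindrome CACGTG matches on both strands and counts as 2, so Ldha had 5 matches at 3 places, and Hk2 and Pgk1 had 2 matches each. For the 10 enzymes, 5 of 14 listed windows, belonging to Aldoa, Hk2, Ldha and Pgk1, held a match, against 16.6% of 32851 windows of this length. The 2 matching windows of Aldoa overlap and hold the same match, so those 5 windows hold it at 4 promoters. Only ACGTG and its reverse complement were searched, so a window without a match may hold another form of the core. A match describes the letters only. The libraries measured RNA, and no promoter was assayed.

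Levels are given as CPM, counts per 1000000 counts of a library whose size was scaled by TMM, a method that lines libraries up on most of their shared genes. The TMM factors were 0.0994 to 0.201 in NEG and 2.05 to 3.13 in KHT and IPT, so 1 count makes more CPM in NEG. A CPM is a share, so less of 1 transcript and more of other RNA cannot be told apart.

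Depth set what could be seen. NEG libraries held 1162178 to 1618998 estimated counts, those of KHT 1955446 to 3689792 and those of IPT 2487679 to 3085423. Outside 9 dominant features, each with at least 0.5% of pooled NEG counts, 31318 to 49062 counts were left in a NEG library, while the other 8 libraries kept 929348 or more. The 10 enzymes together had 4, 42, 20 and 173 counts in NEG 1, 3, 4 and 5, so that NEG 5 held 72.4% of the 239 counts behind every NEG value. In KHT they had 2869 to 7408 counts a library and in IPT 5644 to 8657. All 10 of 10 Leydig cell markers listed were found in every KHT and IPT library. The 4 Sertoli cell markers in the table summed to at most 4.79 CPM in a library and the 2 germ cell markers to at most 3.73, with Amh, Wt1, Fshr and Sycp3 at 4 counts or fewer in each group. NEG 5 stood apart in other RNAs too. Its Leydig markers summed to 396 CPM, against 8.49 to 87.0 in the other NEG libraries, while the 6 keratinocyte and epithelial markers in the table, which include Krt5, Krt10 and Krt14, summed to 0 there against 110 to 223 in the other NEG libraries, 6.04 to 34.0 in KHT and 4.51 to 8.95 in IPT. Jup and Epcam of that list had 0 counts in NEG. Pecam1, an endothelial marker, was at 149, 145, 134 and 20.4 CPM in NEG 1, 3, 4 and 5, while the macrophage markers Ptprc and Cd68 had 0 counts in every NEG library, and Cdh5, another endothelial marker, had 8.40 ± 6.02 CPM in NEG and 16.3 ± 7.27 in IPT. What part these RNAs have in the results was not tested.

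Among the KHT and IPT libraries, KHT 1, KHT 2 and IPT 1 stood apart from the other 5 in many RNAs: 14.6% of the 10714 genes tested were higher in each of the 3 than in all of the other 5, and 13.9% were lower. Pck2, the mitochondrial enzyme that makes phosphoenolpyruvate, was at 43.1 to 45.6 CPM against 5.64 to 10.1. Asns, asparagine synthetase, was at 42.5 to 49.4 against 6.48 to 18.1, and Chac1, a glutathione-degrading enzyme, at 17.9 to 20.8 against 0.836 to 2.98. The Leydig markers summed to 341 to 352 CPM in the 3 libraries and to 492 to 624 in the other 5. Cyp11a1, the enzyme that starts steroid synthesis, was at 25.4 to 28.5 against 87.0 to 136. Of the same markers, Scarb1 went the other way, at 22.6 to 27.8 against 9.72 to 18.8. So did Hsd3b6, at 9.59 to 11.9 against 3.66 to 7.20, and the ranges of Star, Hsd3b1, Lhcgr and Nr5a1 overlapped. The split was seen in the data and is in no label.

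All 10 enzymes passed the filter on low counts. A gene with 0 counts in NEG could pass it only through KHT and IPT, where its counts are. Between groups, edgeR's quasi-likelihood test was run on 10714 genes, and a gene was called at a Benjamini-Hochberg adjusted p under 0.05. Lengths of the transcripts were not used here, so levels are compared between libraries for 1 gene and never between genes. Gene coordinates are those of RefSeq on GRCm38.p6.

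Relative to the negative controls, the KHT pull-downs held more Hk2 and Pfkl. Hk2 was 36.0 ± 3.37 CPM (SD, n = 4) in KHT and 5.88 ± 5.60 in NEG, and Pfkl was 24.8 ± 4.07 in KHT and 4.74 ± 5.92 in NEG. For each gene the NEG value came from 4 counts over the group. These were 2 of 10 enzymes called higher, with 0 called lower, where 31.0% of all genes tested were called higher and 2.72% lower. The log2 fold changes of all 10 enzymes were above 0, with a median of 1.38, and the median over all genes was 1.73. Against the input, by contrast, the KHT pull-downs showed no call among the 10.

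**Figure D1:**
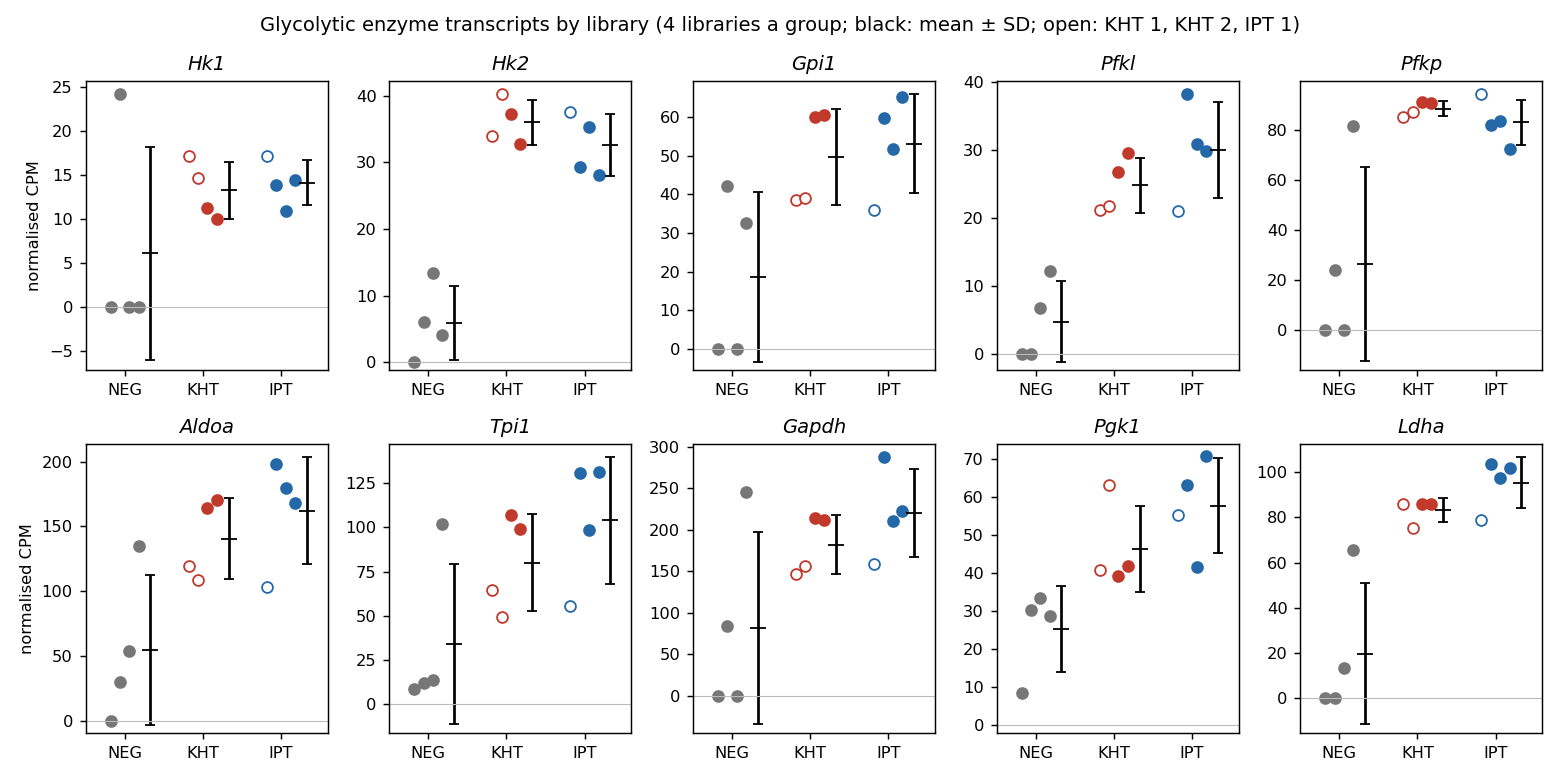
Normalised CPM (vertical axis, 1 scale per gene) of the 10 enzymes in each NEG, KHT and IPT library; each point is a library, black marks give mean ± SD over 4 libraries, and open points are KHT 1, KHT 2 and IPT 1. Hk2 lies at 32.8 CPM or more in KHT and at 13.4 or less in NEG. On this TMM scale Gapdh reaches 245 in NEG 5, above every KHT library.

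Hexokinase, the first enzyme, is encoded by 2 of the genes. Hk2 (ENSMUSG00000000628, chromosome 6, 82725025 to 82774454), the inducible form, had 33.9, 40.2, 37.3 and 32.8 CPM in KHT 1 to 4 and 37.6, 29.3, 35.3 and 28.0 in IPT 1 to 4. In NEG 1, 3, 4 and 5 it had 0, 6.03, 13.4 and 4.09 CPM, from 4 counts in all. Every KHT library lay above every NEG library, and KHT and input overlapped. The log2 fold change of KHT against NEG was 2.81 (SE 0.63, edgeR adjusted p = 0.00508), and Hk2 was called in each of 21 alternatives, at an adjusted p of at most 0.0323. Hk1 (ENSMUSG00000037012, chromosome 10, 62268855 to 62379920), the housekeeping form, had 17.1, 14.6, 11.2 and 9.93 CPM in KHT and 17.1, 13.8, 10.9 and 14.4 in IPT. Its 4 NEG counts were all in NEG 3, at 24.1 CPM, above every KHT and IPT library. The KHT against NEG change of Hk1 was 1.37 (SE 0.79, edgeR adjusted p = 0.163). Without NEG 3, Hk1 had no counts left in NEG and was called; its mean in KHT was then at least 2.77-fold higher than the level of 3 counts over the other NEG libraries, 4.76 CPM, a floor that covers counting error only.

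Glucose-6-phosphate isomerase, Gpi1 (ENSMUSG00000036427, chromosome 7, 34201327 to 34230336), had 38.6, 39.0, 60.1 and 60.6 CPM in KHT and 36.0, 59.7, 51.7 and 65.1 in IPT. In NEG it had 0, 42.2, 0 and 32.7 CPM. NEG 3 lay above KHT 1 and KHT 2, so the groups overlapped, and the change of 1.40 (SE 0.68) was not called (edgeR adjusted p = 0.105).

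Phosphofructokinase sets the pace of the pathway, and 2 of its 3 genes are among the 10 enzymes. Pfkl (ENSMUSG00000020277, chromosome 10, 77986947 to 78009807), the liver form, had 21.1, 21.7, 26.8 and 29.6 CPM in KHT, 21.1, 38.2, 30.8 and 29.9 in IPT, and 0, 0, 6.69 and 12.3 in NEG. The NEG values of Pfkl came from 4 counts in all. The lowest KHT library lay above the highest NEG library, and the change was 2.30 (SE 0.68, edgeR adjusted p = 0.0173). Pfkl was called in 20 of 21 alternatives; without NEG 1 its adjusted p was 0.0541. Pfkp (ENSMUSG00000021196, chromosome 13, 6579874 to 6649060), the platelet form, had 85.1, 87.0, 91.1 and 90.7 CPM in KHT and 94.2, 82.0, 83.7 and 72.4 in IPT. In NEG it had 0, 24.1, 0 and 81.7, and the value in NEG 5 came within the range of the input. KHT and NEG did not overlap for Pfkp, but the change of 1.66 (SE 0.77) was not called (edgeR adjusted p = 0.0921). Whether Pfkl and Pfkp differ in their change was not tested.

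In the middle of the pathway, NEG 5 reached or passed KHT libraries on the TMM scale for Aldoa, Tpi1 and Gapdh. Aldoa (ENSMUSG00000030695, chromosome 7, 126795234 to 126800994), the aldolase of muscle and most cells, had 119.6, 108, 164 and 170.4 CPM in KHT, 103, 198, 179.8 and 168 in IPT, and 0, 30.2, 53.5 and 135 in NEG. Tpi1 (ENSMUSG00000023456, chromosome 6, 124810586 to 124814158), triosephosphate isomerase, had 64.6, 49.3, 107 and 99.1 CPM in KHT, 55.3, 131, 98.7 and 131 in IPT, and 8.49, 12.1, 13.4 and 102 in NEG. Gapdh (ENSMUSG00000057666, chromosome 6, 125161852 to 125166467), the dehydrogenase often used as a reference gene, had 147, 156, 214 and 212 CPM in KHT, 159, 288, 211 and 223 in IPT, and 0, 84.4, 0 and 245 in NEG. In NEG 5, Gapdh lay above every KHT library, Tpi1 above 3 of them and Aldoa above 2. This order rests on the TMM factors. Before scaling, Gapdh had 60 counts in NEG 5, of 1218366 in that library, and 685 to 1893 counts in a KHT library. Their changes were 1.35 (SE 0.80) for Aldoa, 1.17 (SE 0.71) for Tpi1 and 1.12 (SE 0.94) for Gapdh, with edgeR adjusted p of 0.171, 0.186 and 0.332.

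Pgk1 (ENSMUSG00000062070, chromosome X, 106187100 to 106203699), the phosphoglycerate kinase that makes the first ATP of the pathway, had 40.8, 63.2, 39.3 and 42.0 CPM in KHT and 55.4, 63.3, 41.6 and 71.0 in IPT. In the negative controls it had 8.49, 30.2, 33.5 and 28.6 CPM, and Pgk1 and Tpi1 were the only enzymes of the 10 with counts in all 4 NEG libraries. No NEG value reached a KHT value, and the change of 0.92 (SE 0.52, edgeR adjusted p = 0.157) was the smallest of the 10. Ldha (ENSMUSG00000063229, chromosome 7, 46842274 to 46855627), the subunit of lactate dehydrogenase that favours lactate, had 86.1, 75.1, 85.7 and 85.9 CPM in KHT, 78.8, 103, 97.4 and 102 in IPT, and 0, 0, 13.4 and 65.4 in NEG. KHT lay above NEG in every library, and the change of 1.98 (SE 0.78) had an edgeR adjusted p of 0.0547.

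By range alone, KHT lay wholly above NEG for 5 of 10 enzymes (Hk2, Pfkl, Pfkp, Pgk1 and Ldha), where 45.8% of all genes tested did, and wholly below it for 0, where 1.02% did. The count of 5 is near the share among all genes. Calls were 2 of 10 against 31.0% of all genes as reported. With DESeq2 they were 6 against 35.3%, and without NEG 5 they were 8 against 47.2%. Whether the enzymes differ from all genes in these shares was not tested.

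The number of calls against NEG turned on NEG 5 and on scaling. Without NEG 5, 8 of 10 enzymes were called higher by edgeR, and so were 47.2% of the genes tested. Ldha then had the largest change, 4.54 (SE 0.70), followed by Pfkl at 3.81 (SE 0.82) and Pfkp at 3.63 (SE 0.69). Those not called were Hk1, at 0.91 (SE 0.79, adjusted p = 0.315), and Pgk1, at 1.10 (SE 0.46, adjusted p = 0.0597). Scaling by total counts alone, which leaves the dominant features of NEG in the divisor, gave changes of 4.86 to 6.80 and called 10 of 10 enzymes, with 97.3% of all genes called higher. The median over all genes moved with it, to 5.66, and the enzymes' median of 5.35 lay below that value. With limma voom the order turned, with a median of 2.32 for the enzymes and 1.01 over all genes. DESeq2 called 6 of 10 enzymes higher and 35.3% of all genes.

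**Figure D2:**
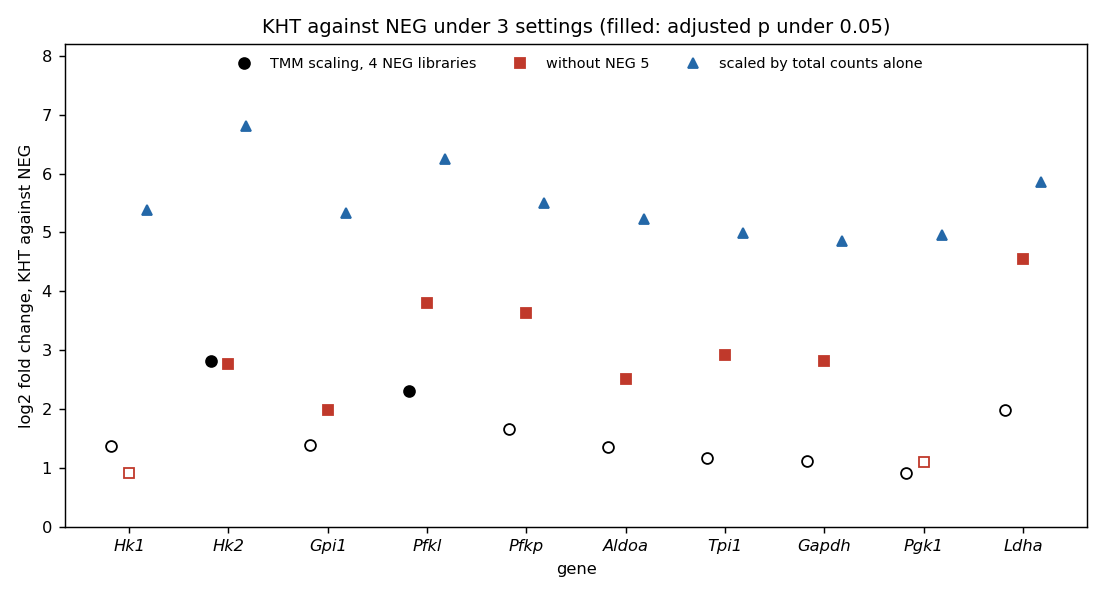
Log2 fold change of KHT against NEG (vertical axis) for each enzyme (horizontal axis) with TMM scaling and 4 NEG libraries (circles), without NEG 5 (squares) and with total counts alone (triangles); filled symbols have an adjusted p under 0.05. Hk2 is at 2.81 with NEG 5 and 2.76 without it, while Ldha moves from 1.98 to 4.54.

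Set against the input RNA, none of the 10 transcripts passed the test in the KHT pull-downs. No enzyme was called by edgeR, DESeq2 or limma voom, and 0 had an unadjusted p under 0.05, where edgeR called 0.00933% of all genes higher (1 of 10714) and 0 lower. Log2 fold changes ran from -0.38 for Tpi1 (SE 0.64) to 0.15 for Hk2 (SE 0.33), with a median of -0.20, against 0.01 over all genes. Between these lay Pfkp at 0.09 (SE 0.67), Hk1 at -0.09 (SE 0.34), Gpi1 at -0.10 (SE 0.52), Ldha at -0.20 (SE 0.66) and Aldoa at -0.20 (SE 0.74). Gapdh stood at -0.27 (SE 0.91), Pfkl at -0.28 (SE 0.33) and Pgk1 at -0.32 (SE 0.42). KHT and IPT libraries overlapped for all 10 enzymes, where 0.840% of all genes lay wholly above the input and 1.17% wholly below. The spread in this fit was shared with NEG. In a fit of KHT and IPT alone, standard errors shrank from 0.33 to 0.91 down to 0.12 to 0.32, and the smallest unadjusted p was 0.145, for Pgk1.

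**Figure D3:**
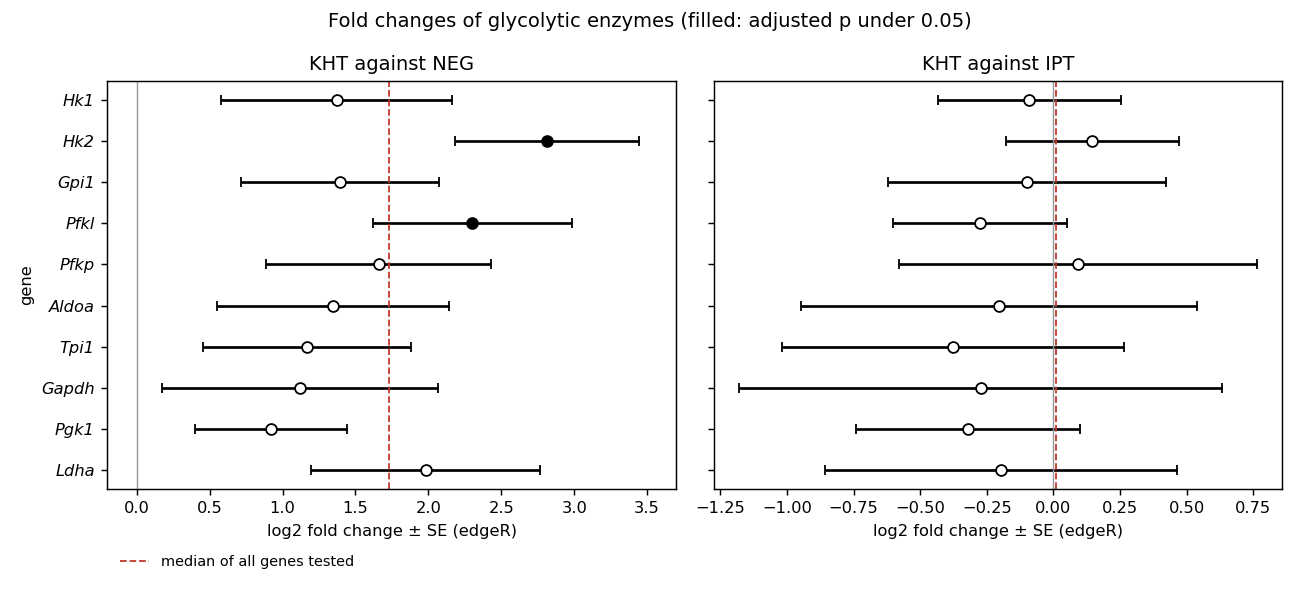
Log2 fold change ± SE (horizontal axes, separate scales) of the 10 enzymes for KHT against NEG and KHT against IPT; dashed lines mark the median of all genes tested and filled points an adjusted p under 0.05. Hk2 and Pfkl are the filled points on the left, and every point on the right lies between -0.38 and 0.15.

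The negative controls held less Hk2, Pfkl and Ldha than the input. The changes of NEG against IPT were -2.67 (SE 0.63, edgeR adjusted p = 0.00583) for Hk2, -2.58 (SE 0.67, adjusted p = 0.00893) for Pfkl and -2.18 (SE 0.79, adjusted p = 0.0374) for Ldha. Hk2 and Pfkl were called in 21 of 21 alternatives and Ldha in 10, with an adjusted p of up to 0.0872. These were 3 of 10 enzymes called lower, where 32.5% of all genes were, with 0 called higher against 3.64%, and the enzymes' median change was -1.55 against -1.74 over all genes (-2.38 against -1.02 with limma voom). NEG lay wholly below IPT for 4 of 10 enzymes (Hk2, Pfkl, Pgk1 and Ldha), as did 47.1% of all genes, and wholly above it for 0, as did 1.74%. This comparison and that of KHT with NEG share their NEG libraries and are not independent.

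Across KHT and IPT, 5 of 10 enzymes were lower in each of KHT 1, KHT 2 and IPT 1 than in all of the other 5 libraries, where 13.9% of all genes tested were, and 1 was higher, where 14.6% were. These ranges are a description with no test. Gpi1, Pfkl, Aldoa, Tpi1 and Gapdh were the 5. Tpi1 was at 49.3 to 64.6 CPM there and at 98.7 to 131 in the other 5, Aldoa at 103 to 119.6 against 164 to 198, and Gapdh at 147 to 159 against 211 to 288. Gpi1 was at 36.0 to 39.0 against 51.7 to 65.1, and Pfkl at 21.1 to 21.7 against 26.8 to 38.2. Hk1 alone went the other way, at 14.6 to 17.1 against 9.93 to 14.4. Ranges overlapped for Hk2, Pfkp, Pgk1 and Ldha. Sums of other lists were lower in the same 3 libraries. The 15 further glycolytic enzymes in the table summed to 398 to 479 CPM there and 611 to 756 in the other 5. Among them Pkm was at 89.0 to 109 against 188 to 234, while Adpgk was higher, at 11.4 to 15.2 against 6.38 to 8.94. The sum of the Leydig markers was lower there too, though single markers differed, as given above. The division ran across the groups, 2 libraries of KHT and 1 of IPT, and without those 3 libraries the KHT against IPT changes of the 10 enzymes ran from -0.53 to 0.20 with 0 called by edgeR, and the KHT against NEG calls were again Hk2 and Pfkl. What part the other RNAs that moved with the split have in these ranges was not tested.

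**Figure D4:**
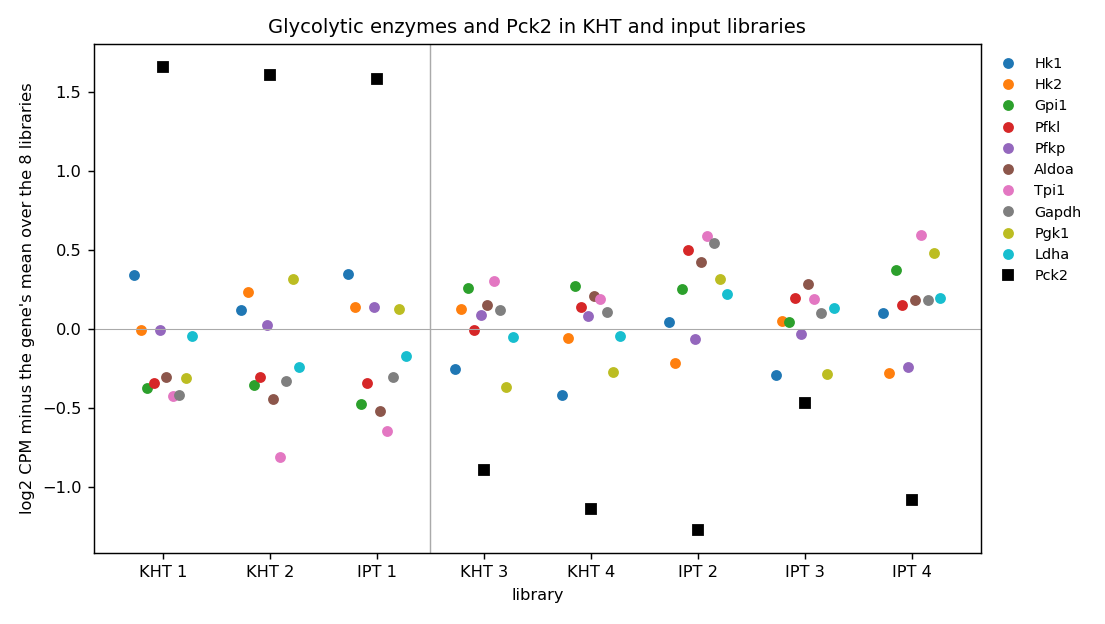
Log2 CPM minus the gene's mean over 8 libraries (vertical axis) for the 10 enzymes (coloured points) and Pck2 (squares) in each KHT and IPT library (horizontal axis); the vertical line separates KHT 1, KHT 2 and IPT 1 from the other 5. Gpi1, Pfkl, Aldoa, Tpi1 and Gapdh lie lower on the left of the line and Hk1 and Pck2 higher.

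Shares of isozymes were compared between the KHT pull-downs and the input RNA, which does not test which isozyme the cells use. Hk2 made up 73.4 ± 4.87% (SD, n = 4) of the counts of Hk1 and Hk2 in KHT and 69.8 ± 4.59% in IPT (two-sided exact permutation test, p = 0.343, adjusted p = 0.343 over 2 such shares). Pfkl made up 18.6 ± 1.48% of the counts of Pfkl, Pfkm and Pfkp in KHT and 22.0 ± 4.66% in IPT (exact permutation p = 0.229, adjusted p = 0.343). With 4 libraries a group the smallest p this test allows is 0.0286. The shares were chosen after the values were seen and are not corrected for transcript length, so they compare groups and not isozymes.

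Several other isozymes were at or near 0. Ldhb, the lactate dehydrogenase subunit of heart, had 1 count over the 4 KHT libraries and 0 over the 4 IPT libraries. The germ cell form Gapdhs had 1 and 5 counts, and the liver pyruvate kinase gene Pklr 2 and 2. These genes fall outside the rule for naming and were named after their counts were seen.

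Of 19 further glycolytic enzymes listed, 15 were in the table and 8 were tested. In KHT against NEG, 3 of 8 were called higher, near the 31.0% of all genes, and 0 lower: Adpgk, which phosphorylates glucose with ADP, Eno3, the enolase of muscle, and Bpgm, which makes bisphosphoglycerate. Each had 0 counts in NEG and passed the filter through KHT and IPT alone. Against a floor of 3 counts over the group they were at least 2.73-fold, 1.44-fold and 1.05-fold higher. Over 21 alternatives Adpgk was called in 21, Eno3 in 20 and Bpgm in 11. Eno1, Pgam1 and Pkm, which carry the carbon from Pgk1 to pyruvate, were named after their values were seen. In NEG 5 they had 143, 225 and 135 CPM, and in the other NEG libraries at most 6.69, 46.9 and 26.8. None of these 3 was called, at edgeR adjusted p of 0.0612, 0.375 and 0.118. In KHT against IPT, 0 of 8 were called and 0 had an unadjusted p under 0.05.

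Among 16 regulators and transporters, 13 were tested and 4 were called higher in KHT than in NEG, near the 31.0% of all genes. These were Slc16a1, a carrier of lactate (2.90, SE 0.77, adjusted p = 0.0104), Bsg, its chaperone (2.29, SE 0.75, adjusted p = 0.0265), Hif1a, the hypoxia factor's regulated subunit (2.09, SE 0.60, adjusted p = 0.0147), and Pfkfb2, which makes the activator of phosphofructokinase and was at least 1.55-fold higher. Slc16a1 was called in 21 of 21 alternatives, Pfkfb2 in 20, Hif1a in 19 (not with the 2 groups alone, adjusted p = 0.102) and Bsg in 16 (without NEG 1, adjusted p = 0.0652). Slc16a1 and Bsg had their NEG counts, 7 and 10, in NEG 5 alone. Pfkfb2 had 0 counts in NEG and passed the filter through KHT and IPT alone. In KHT against IPT, 0 of 13 were called and 1 had an unadjusted p under 0.05, Slc16a3, another lactate carrier, at -1.25 (SE 0.45).

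Transcripts of genes for the entry and use of pyruvate in mitochondria were mostly called. Of 15 genes listed, 14 were tested and 12 were called higher in KHT than in NEG by edgeR, against 31.0% of all genes, and 0 lower. The list was chosen with earlier results of these data known, so this share is a description and no test of the list. Pcx, pyruvate carboxylase, changed by 3.07 (SE 0.67, adjusted p = 0.00474), from 4.57 ± 5.86 CPM in NEG to 42.1 ± 5.94 in KHT. The NEG value of Pcx came from 4 counts over the group. Pdp2 and Pdp1, the phosphatases that switch pyruvate dehydrogenase on, and Pdpr, their regulatory subunit, had no counts in NEG and were at least 4.54-fold, 2.79-fold and 3.54-fold higher. Pdp2, Pdp1 and Pdpr passed the filter through KHT and IPT alone. Mpc2, a subunit of the pyruvate carrier, had 1 count in NEG, a ratio of 10.1 with a 95% counting interval of 1.80 to 399, and Pdhb, a subunit of pyruvate dehydrogenase, had 2, a ratio of 6.83 with an interval of 1.88 to 56.6. The pyruvate dehydrogenase kinases Pdk1 (edgeR adjusted p = 0.0221) and Pdk3 (0.0365) were called higher too, while Pdk4 was not (0.406). These kinases were named after their values were seen. The count of calls on this list ran from 7 to 14 over the alternatives. It was 7 without NEG 1, where 15% of all genes were called higher, and 14 with total counts alone, where 97.3% were. Whether the list differs from the glycolytic enzymes was not tested. In KHT against IPT, 0 of these 14 genes were called, and 0 had an unadjusted p under 0.05.

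Routes that branch off glycolysis were tested too. In the pentose phosphate pathway 1 of 7 genes tested was called higher in KHT than in NEG, against 31.0% of all genes. It was Rpe (ribulose-phosphate epimerase), with 3 counts in NEG and a ratio of 4.67 (95% counting interval 1.59 to 22.7). Rpe was called in 14 of 21 alternatives, and without NEG 1 its adjusted p was 0.131. Without NEG 5, 7 of 7 were called, against 47.2% of all genes. Of 8 genes of gluconeogenesis and glycogen tested, 2 were called, near the 31.0% of all genes: Fbp2, a fructose bisphosphatase, with 1 count in NEG and a ratio of 6.52 (interval 1.16 to 259), and Pygb, the brain glycogen phosphorylase, which had none and was at least 3.04-fold higher. Fbp2 was called in 15 of 21 alternatives, with an adjusted p of 0.123 without NEG 1, and Pygb in 21. Pygb passed the filter through KHT and IPT alone. Neither list had a call in KHT against IPT, and 0 genes of either had an unadjusted p under 0.05.

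Hexokinases 1 and 2 dock on the voltage-dependent anion channels of the outer mitochondrial membrane, and the transcripts of these channels split. Vdac1 was higher in KHT than in NEG, by 1.97 (SE 0.61, adjusted p = 0.0208), and was called in 18 of 21 alternatives, but not with the 2 groups alone (0.0762), without NEG 1 (0.0541) or without NEG 4 (0.0531). Vdac2 went the other way with TMM, at -1.43 (SE 0.43, adjusted p = 0.0176), and was higher in KHT with total counts alone, at 2.70 (SE 0.44). Its lower call held in 15 of 21 alternatives, and its adjusted p was 0.177 without the filter, 0.142 with the 2 groups alone, 0.0578 without NEG 4, 0.0523 without KHT 1 and 0.179 without KHT 1, KHT 2 and IPT 1. Vdac2 had 72.1, 84.4, 114 and 32.7 CPM in NEG 1, 3, 4 and 5 and 22.6 to 32.0 in KHT. Vdac3 was not called, at 0.99 (SE 0.58, adjusted p = 0.169). Without KHT 1, KHT 2 and IPT 1 its change was 0.36 (SE 0.93, edgeR adjusted p = 0.764). In those libraries Vdac3 was at 112 to 114 CPM, against 45.3 to 57.6 in the other KHT and IPT libraries. Against IPT none of the 3 channel genes was called, and 0 had an unadjusted p under 0.05. No gene tested of these further lists was called in KHT against IPT under any of the 21 alternatives, DESeq2 and limma voom among them.

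Glycolytic enzyme genes have many processed copies, and reads of near-identical copies can be split between them. Pgk1-rs7 had 144 counts in IPT 2 and 1 to 14 in the other 7 KHT and IPT libraries. Gapdh-ps14 had 2 and 6 counts in NEG 1 and 3, where Gapdh had 0 and 14. Eno1b, listed as a copy of Eno1, had 2 and 8 counts in NEG 3 and 4, where Eno1 had 0 and 1. In KHT and IPT Eno1b had 0 counts. A second identifier with the symbol Aldoa had 21 counts in KHT, 2 in NEG and 46 in IPT. None of these copies was tested, and the levels of Pgk1, Gapdh, Aldoa and Eno1 are uncertain by what their copies hold. How reads shared between copies were counted is not stated in the labels.

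Over the 12 libraries the genes whose log2 CPM most resembled the mean of the 10 enzymes were Abhd2 (Pearson r = 0.993), Phip (0.989), Ppp1r12a (0.988), Rab14 (0.988) and Mcm6 (0.986), among 2718 genes compared. The points share library and depth, and the correlation spans the step from NEG to the other groups, so it describes these libraries only.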

How the data were processed

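RNA sequencing libraries of MA-10 cells were grouped by title, since the description of the KHT samples speaks of negative controls while title and treatment name KHT. The authors deposited estimated counts per gene (expected counts, unscaled); per the submitters' processing notes, kallisto, DESeq2 and the builds GRCm38 and mm10 were used, with versions and roles not given in the sources used here. The values were whole, so rounding changed 0 of them. Symbols came from a gene name table for 27004 of 27071 identifiers.

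Counts were tested with edgeR 4.0.16 in R 4.3.3 (TMM, filterByExpr, glmQLFit with robust estimation, glmQLFTest, two-sided), in 1 fit of 12 libraries, with Benjamini-Hochberg adjustment over 10714 genes. limma 3.58.1 (voom) and DESeq2 1.42.0 were alternatives. Floors are 3 counts over a group; intervals are exact binomial at 95%. Floors and intervals cover counting error only. The members and lists were chosen with earlier results of these data known. All 10 enzymes are named, and of each other list up to 6 genes past the threshold by smallest p; other names are marked where they occur. Correlations between libraries gave little sign of pairing by replicate number, but they cannot exclude it.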

Additional observations from a re-analysis of the deposited data

Results flagged for a closer look

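In 30 sets of 4 libraries (10 enzymes in 3 groups), the highest or lowest library was compared with its nearest neighbour by Dixon's criterion. In 4 sets a library lay far from the others. The criterion passes about 1 in 20 sets of independent, normally spread values. These sets share libraries and hold counts of 0 in NEG, so the 4 cannot be set against that rate. Hk1 in NEG 3 was 24.12 CPM, with 0 in the other NEG libraries, a set that passes the criterion by construction. Tpi1 in NEG 5 was 102.1 CPM, against at most 13.4 in the other NEG libraries. In KHT 2, Pgk1 was the highest of its group at 63.24 CPM, and Ldha was the lowest of its group at 75.11 CPM.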

How the results depend on the processing

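Depth in NEG was low: 239 counts of 10 enzymes in 4 libraries. In KHT against NEG, enzymes called higher numbered 2 as reported, 6 with DESeq2, 10 with total counts alone and 1 to 8 when 1 library was left out; the low value came without NEG 1 and the high value without NEG 5. The replicate block gave 8, but correlation gave little sign that shared numbers pair the libraries. Of 10 same-numbered pairs, 2 correlated above 0.1 (r from -0.33 to 0.20), and 3 of 20 library and group combinations correlated best with their own number. With 4 libraries a group these correlations cannot exclude pairing. In NEG against IPT, enzymes called lower numbered 3 as reported, 5 with RLE size factors and 8 with DESeq2. They numbered 10 with total counts alone, 8 with the replicate block and 2 to 9 when 1 library was left out, the high value without NEG 5. Of all genes tested, 32.5% were called lower as reported, 37% with RLE size factors, 37.9% with DESeq2 and 97.3% with total counts alone. That share was 46.9% with the replicate block, 15.6% without NEG 1 and 47.4% without NEG 5. Over all genes tested, KHT against NEG gave 3324 higher and 291 lower calls as reported, 10426 and 14 with total counts alone, 5042 and 358 with the block, 1720 and 228 without NEG 1 and 5421 and 454 without NEG 5. In KHT against IPT, calls on the enzymes stayed at 0 under all 21 alternatives. Signs there changed for Hk2 (-0.10) and Pfkp (-0.16) with total counts alone, for Gpi1 (0.0368) without KHT 1, KHT 2 and IPT 1, and when 1 library was left out for Hk1 (-0.2447 to 0.0216) and Gpi1 (-0.2464 to 0.0122). The enzymes' median lay further from 0 than that of all genes with limma voom in KHT against NEG, and with limma voom and DESeq2 in NEG against IPT, and nearer to 0 in the other settings of both. The cause of these changes was not tested. The alternative without KHT 1, KHT 2 and IPT 1 was chosen after seeing the data. An order of levels by transcript length was not run.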
